A study of Mus musculus with 31 samples.

Results

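Midazolam exposure shortly after birth was followed into adulthood here, in EGFP-positive cells sorted from the hippocampal dentate gyrus of Nestin-EGFP mice on a C57BL/6 background. The comparison is between 3 RNA sequencing libraries from exposed mice at 8 weeks (MDZ 8w) and 3 from control mice of the same age (Control 8w), 6 of the 31 samples of the series. MDZ 8w mice received midazolam at 10 mg/kg into the peritoneum on postnatal days 7, 8 and 9, and Control 8w mice received water on the same days. Every library pooled sorted cells of 3 to 5 mice, about 30000 cells, so that single animals cannot be told apart. A further group of 3 libraries, RUN MDZ 8w, came from exposed mice that also had a running wheel, and it enters here through the estimate of spread and as values set beside the main groups. Libraries of 1 mouse each at postnatal day 10 (Control P10 and MDZ P10, 3 each, 50000 cells) serve to compare the ages. Each 8-week library listed 24062 gene names. Of these, 9071 averaged at least 20 TPM (transcripts relative to a fixed total per library) over the 6 libraries, and the 8301 of them that were above 0 in all 6 libraries were tested. Zfp654 and Tbc1d5 lay just inside the minimum at 20.01 and 20.02 TPM, and Sp4 and Itpr1 just outside it at 19.99 and 19.98 TPM.

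Midazolam is a benzodiazepine sedative. It binds GABA-A receptors, the chloride channels opened by the transmitter GABA, and increases their response. The dentate gyrus keeps neural stem cells into adult life. These radial glia-like cells, many of them quiescent, give rise to intermediate progenitors, neuroblasts and finally granule neurons. In Nestin-EGFP mice the regulatory sequence of nestin, an intermediate filament gene of stem cells, drives the fluorescent protein, so that the sorted cells are defined by reporter activity and can include early progeny and other nestin-active cells such as pericytes. In such a mixed population, fewer cells of a type and less RNA per cell cannot be told apart.

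The sorted cells carried the genes of the labelled lineage in all 6 libraries. Sox2 was at 197 to 328 TPM, Neurod1 at 397 to 1055 TPM and Nes itself at 12.2 to 85.6 TPM. The control libraries did not vary like the others. The robust SD of the log2 ratio between libraries was 0.276 to 0.302 within MDZ 8w. In Control 8w, replicate 1 had 1.16 and 1.09 with replicates 2 and 3, which had 0.225 with each other. The last pair differed by less than any other, and those libraries were therefore averaged and counted as 1 sample, which leaves n = 2 for Control 8w. A library listed 11163 to 11397 genes above 0 in Control 8w and 15382 to 16709 in MDZ 8w. Of the genes that reached the minimum mean, 770 were removed for a value of 0. All 770 were at 0 in at least 1 Control 8w library, against 12 in at least 1 MDZ 8w library. Read depth at 8 weeks is unknown. In Control 8w replicate 1, 225 tested genes were below 1 TPM, among them 3 of 181 ribosomal, respiratory chain and proteasome genes, against 0 to 9 tested genes in each of the other 5 libraries. For the gene lists and the main genes, changes are therefore also given against Control 8w replicate 1 alone and against the mean of replicates 2 and 3, in that order.

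At 8 weeks, 25 genes rose and 7 fell in MDZ 8w (limma-trend on log2(TPM + 1), Benjamini-Hochberg adjusted p below 0.05). That is 0.385% of the genes tested, 0.301% higher and 0.0843% lower. At an unadjusted p below 0.05, 840 genes (10.1%) were higher and 694 (8.36%) lower. The lowest exposed library was at least 2 times the highest control library for 104 genes (1.25%), and the highest exposed library at most 1/2 of the lowest control library for 77 genes (0.928%). Among the genes that rose were Id4, a helix-loop-helix inhibitor that keeps dentate stem cells quiescent, Gas1, a co-receptor for hedgehog ligands, and Mlc1, an astroglial membrane protein. Others were the mitochondrial genes Ptpmt1, Atp5g3 and Uqcr10 and the histone mRNA-binding protein Slbp. Those that fell included the semaphorin receptor gene Plxna2, the histone gene Hist3h2a, the organic anion transporter gene Slc22a8 and Bgn, which encodes the matrix proteoglycan biglycan.

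Id4 was at 49.5, 55.7 and 47.0 TPM in Control 8w replicates 1 to 3 and at 227, 248 and 219 TPM in MDZ 8w. All exposed libraries lay above all control libraries, with a wide gap and little spread in either group. The mean rose 4.58-fold, from 50.5 ± 1.28 (SD, n = 2) to 231 ± 14.8 TPM (SD, n = 3), a log2 change of 2.17 ± 0.25 (SE, adjusted p = 0.0353 by limma). The change was 2.20 against Control 8w replicate 1 alone and 2.15 against the mean of replicates 2 and 3. In RUN MDZ 8w the gene was at 128, 222 and 179 TPM. Id4 lies on chromosome 13, 48261116 to 48266028 (GRCm38).

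Gas1 was at 17.6, 19.8 and 22 TPM in Control 8w and at 77.4, 65.7 and 64.9 TPM in MDZ 8w. The groups were again far apart (log2 1.80 ± 0.26, adjusted p = 0.0410 by limma), and the change was 1.91 and 1.68 against the separate controls. Mlc1 was at 125, 134 and 165 TPM in Control 8w and at 381, 486 and 417 TPM in MDZ 8w, without overlap (log2 1.63 ± 0.19, adjusted p = 0.0353). Neat1, a long noncoding RNA that builds nuclear paraspeckles, was at 25, 45.4 and 55.1 TPM in Control 8w and at 162, 149 and 169 TPM in MDZ 8w (log2 2.14 ± 0.32, adjusted p = 0.0425). Against the separate controls the changes were 1.76 and 1.51 for Mlc1 and 2.63 and 1.65 for Neat1. For these genes, too, each exposed library exceeded each control library.

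The largest rises were of genes with low values in controls. Ptpmt1, a phosphatase of the cardiolipin pathway in mitochondria, was at 0.112, 2.80 and 4.35 TPM in Control 8w and at 70.1, 63.6 and 54.4 TPM in MDZ 8w (log2 4.81 ± 0.58, adjusted p = 0.0363 by limma). Gtf2a2, a subunit of the general transcription factor TFIIA, was at 14.9, 8.37 and 2.05 TPM against 121, 129 and 110 TPM. Lyar, a nucleolar protein, was at 3.52, 7.15 and 6.24 TPM against 41.6, 57.8 and 57.0 TPM. Their changes against the separate controls were 5.83 and 3.79 for Ptpmt1, 2.92 and 4.28 for Gtf2a2 and 3.54 and 2.77 for Lyar. Of the 25 genes that rose, 11 had a control mean below 20 TPM and reached the minimum only through MDZ 8w, where they are high, so that their number says nothing about low genes. By the mean of the 3 control libraries, these 11 were Ptpmt1, Gtf2a2, Lyar, Cmtm6, Slbp, Ddx27, Mfsd11, Fubp3, Gas1, Wdr11 and Slc25a44. Apart from Ptpmt1, Gtf2a2 and Lyar, the log2 rises ranged from 1.39 (Nelfb) to 2.60 (Cmtm6). Nelfb is a subunit of the complex that pauses RNA polymerase. Over all 25, the changes ran from 1.24 to 5.83 against replicate 1 and from 1.34 to 4.28 against replicates 2 and 3.

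Among the 7 genes that fell, the control libraries were close to each other for most, but not for Slc22a8. The median difference between Control 8w replicate 1 and the mean of replicates 2 and 3 was 0.08 in size on the log2 scale for these 7, 0.42 for the genes that rose and 0.76 for all genes tested. For Slc22a8 the difference was -0.93 and for Bgn 0.32. The test favours genes with a small spread among controls, so that these medians are no independent result. Hist3h2a was at 778, 741 and 874 TPM in Control 8w and at 323, 292 and 316 TPM in MDZ 8w (log2 -1.35 ± 0.16, adjusted p = 0.0360 by limma). Plxna2 was at 250, 228 and 218 TPM against 86.0, 98.6 and 95.6 TPM (log2 -1.33 ± 0.21, adjusted p = 0.0470). Crip1, a small LIM domain protein, was at 375, 331 and 407 TPM against 106, 138 and 117 TPM (log2 -1.63 ± 0.22, adjusted p = 0.0392). The exposed libraries of all 3 genes lay more than 2-fold below every control library. Dpp7, a lysosomal peptidase, and Mast1, a microtubule-associated kinase, fell by 1.65 and 1.53 on the log2 scale. Over all 7, the changes ran from -1.91 to -1.33 against replicate 1 and from -2.60 to -1.25 against replicates 2 and 3.

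Slc22a8 is a transporter gene of brain vessels and choroid plexus, and Bgn is a gene of perivascular and meningeal cells. Slc22a8 was at 65.5, 127 and 123 TPM in Control 8w and at 19.3, 18.9 and 21.5 TPM in MDZ 8w (log2 -2.14 ± 0.33, adjusted p = 0.0462 by limma). It averaged 19.9 TPM in MDZ 8w and so reached the minimum mean only through Control 8w, where it is high. In RUN MDZ 8w it was at 67.3, 102 and 89.8 TPM. Bgn was at 235, 182 and 196 TPM in Control 8w, 43.3, 70 and 77.8 TPM in MDZ 8w and 175, 176 and 169 TPM in RUN MDZ 8w (log2 -1.75 ± 0.27 for MDZ 8w, adjusted p = 0.0462). For both genes MDZ 8w was the low group, and the libraries of exposed running mice were near the controls. Both 8-week contrasts share the control libraries. Summed vessel and choroid plexus markers also differed among the libraries. Those of pericytes, smooth muscle and fibroblasts ranked the Control 8w and MDZ 8w libraries in the same order as Bgn. The endothelial and choroid plexus sums ranked them otherwise, and none of these sums had the order of Slc22a8. They are given with the other cell types below, and their part in these values was not tested.

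**Figure D1:**
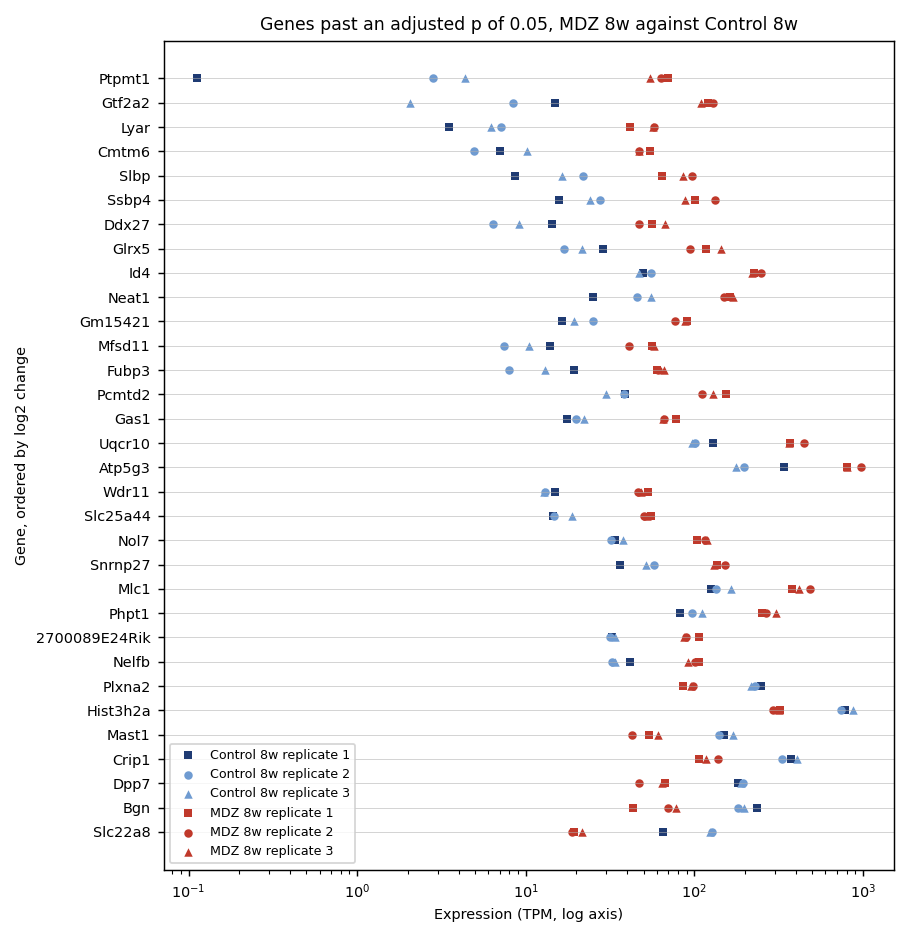
Expression in TPM on a log axis of the 32 genes that passed an adjusted p of 0.05, with 1 point per library (blue, Control 8w; red, MDZ 8w; square, circle and triangle for replicates 1, 2 and 3). The groups do not overlap for any gene shown, and the widest scatter among controls is that of Ptpmt1 and Gtf2a2, which have low values there.

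The calls depended on the estimate of spread. The fit assumed 1 spread for all groups, although the controls differed more from each other. The robust SD was 1.16 and 1.09 between Control 8w replicate 1 and replicates 2 and 3, against 0.276 to 0.302 within MDZ 8w. With library quality weights, which let libraries differ in spread, 0 genes passed (446 at an unadjusted p below 0.05 by limma). With limma, 0 genes passed when any 1 library of MDZ 8w or RUN MDZ 8w was left out (947 to 1004 and 1352 to 1462 genes at an unadjusted p below 0.05), and 0 when the running group was left out altogether (1205 at an unadjusted p below 0.05). Without Control 8w replicate 1 the count was 1036, from a control group of 1 sample assumed to vary like the others, and without replicates 2 and 3 it was 2559. The 32 genes kept their direction under every alternative that tested them. Since the groups overlap for none of these genes, that was largely fixed in advance. With a minimum mean of 50, 22 of them were tested.

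The sequence before the gene start is shown for 2 genes that rose, Id4 and Gas1, and 2 that fell, Plxna2 and Crip1, whose control libraries lay close together, so that a reader can see what kind of promoter lies behind each change. Sequences are from RefSeq on GRCm38.p6, are written on the strand of the gene, and end at the base before its annotated start. They lie at chr13:48260866-48261115 (plus strand, Id4), chr13:60177536-60177785 (minus strand, Gas1), chr1:194619579-194619790 (plus strand, Plxna2) and chr12:113151762-113152011 (plus strand, Crip1). Capitals mark the GC box GGGCGG, which Sp1-type zinc finger factors bind, the CCAAT box, the EGR site GCGTGGGCG, which immediate early factors of the Egr family bind, and the E-boxes CAGCTG and CATCTG of helix-loop-helix factors, each on either strand.
Id4: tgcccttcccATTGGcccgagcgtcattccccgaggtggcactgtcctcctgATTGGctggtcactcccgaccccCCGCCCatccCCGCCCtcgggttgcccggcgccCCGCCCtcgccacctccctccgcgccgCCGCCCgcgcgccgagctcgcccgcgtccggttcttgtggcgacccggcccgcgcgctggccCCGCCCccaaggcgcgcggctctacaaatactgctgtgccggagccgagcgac
Gas1: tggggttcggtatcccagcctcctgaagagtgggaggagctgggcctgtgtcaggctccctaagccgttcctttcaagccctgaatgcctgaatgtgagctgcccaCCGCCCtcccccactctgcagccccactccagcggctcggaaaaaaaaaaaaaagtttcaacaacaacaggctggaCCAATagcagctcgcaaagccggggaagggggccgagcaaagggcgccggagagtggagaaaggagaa
Plxna2: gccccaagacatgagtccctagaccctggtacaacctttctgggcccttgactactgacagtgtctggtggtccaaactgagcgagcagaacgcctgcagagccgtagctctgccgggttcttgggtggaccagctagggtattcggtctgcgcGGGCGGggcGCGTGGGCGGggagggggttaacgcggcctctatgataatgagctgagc
Crip1: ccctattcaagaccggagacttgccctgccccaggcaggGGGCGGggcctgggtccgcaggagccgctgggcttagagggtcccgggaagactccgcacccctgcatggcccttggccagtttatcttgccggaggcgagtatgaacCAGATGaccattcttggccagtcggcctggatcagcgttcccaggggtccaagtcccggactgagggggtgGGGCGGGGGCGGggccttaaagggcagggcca
The Id4 stretch held 5 GC boxes and 2 CCAAT boxes and was 75.6% G and C. The Gas1 stretch held 1 GC box and 1 CCAAT box (58.8% G and C). The Plxna2 stretch, 212 bases long, held 2 GC boxes, 1 of which overlapped an EGR site. The Crip1 stretch held 3 GC boxes and 1 E-box (CATCTG on the other strand) and no CCAAT box. Over the 6369 tested genes with a promoter in RefSeq, a stretch of 250 bases held a GC box in 63.0%, a CCAAT box in 36.3%, the TATA box TATAAA in 5.46%, CAGCTG in 10.6%, CATCTG in 8.89% and an EGR site in 1.10%. Among the 20 genes that rose and have one, 9 held a GC box, 11 a CCAAT box and 1 an EGR site, and among 6 that fell the numbers were 5, 1 and 1. A match is a stretch of letters and does not show that a factor binds there.

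Stem cell genes lay on the higher side in MDZ 8w. Of 39 tested members of a list of 40 radial glia and quiescent stem cell genes, 36 had a positive log2 change, and 1 (Id4) rose. Over all genes tested, 4508 of 8301 had a positive change, a share to hold beside the counts of every list. An unadjusted p below 0.05 was reached by 17 members with positive and 0 with negative changes. In 22 members (56.4%) all exposed libraries were above all control libraries, against 15.3% of all genes tested, and in 0 they were all below. The list's median log2 change was 0.67 against 0.06 for all genes tested. It was 0.68 against Control 8w replicate 1 alone and 0.62 against replicates 2 and 3, and 0.62 to 0.80 under the alternatives tried. Summed over the list, the level was 16551, 14965 and 15487 TPM in Control 8w and 24912, 24078 and 19969 TPM in MDZ 8w.

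Several of the best known stem cell markers showed the pattern without passing the test. Hopx, a homeodomain protein of quiescent stem cells, was at 128, 90.6 and 97.1 TPM in Control 8w and at 342, 393 and 322 TPM in MDZ 8w (log2 1.67 ± 0.30, adjusted p = 0.0587 by limma). Fabp7, a brain lipid carrier of radial glia, was at 458, 522 and 415 TPM against 1452, 1388 and 960 TPM (log2 1.43, adjusted p = 0.0530). Fgfr3, a fibroblast growth factor receptor, was at 15.7, 27.5 and 35.4 TPM against 89.0, 72.6 and 93.8 TPM (log2 1.88, adjusted p = 0.0530). The lowest exposed library exceeded the highest control library in each of these genes, and for Hopx and Fgfr3 it was more than 2 times as high.

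Nes was at 12.2, 26.1 and 24.4 TPM in Control 8w and at 43.8, 85.6 and 44.4 TPM in MDZ 8w (log2 1.59, adjusted p = 0.131 by limma). Slc1a3, a glutamate transporter of radial glia and astrocytes, was at 716, 840 and 736 TPM against 1162, 1281 and 1081 TPM (log2 0.64, adjusted p = 0.0989). Both genes were without overlap between the groups. The general stem cell factors differed less. Sox2 was at 197, 311 and 266 TPM against 315, 315 and 328 TPM (log2 0.42, adjusted p = 0.347), and Gfap, the astroglial intermediate filament, at 103, 85.6 and 76.7 TPM against 121, 142 and 129 TPM (log2 0.51, adjusted p = 0.367). For Sox2 the nearest control library lay only just below the exposed ones. The members with negative values were Sparcl1, Cd9 and Prom1, at -0.03 to -0.17.

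**Figure D2:**
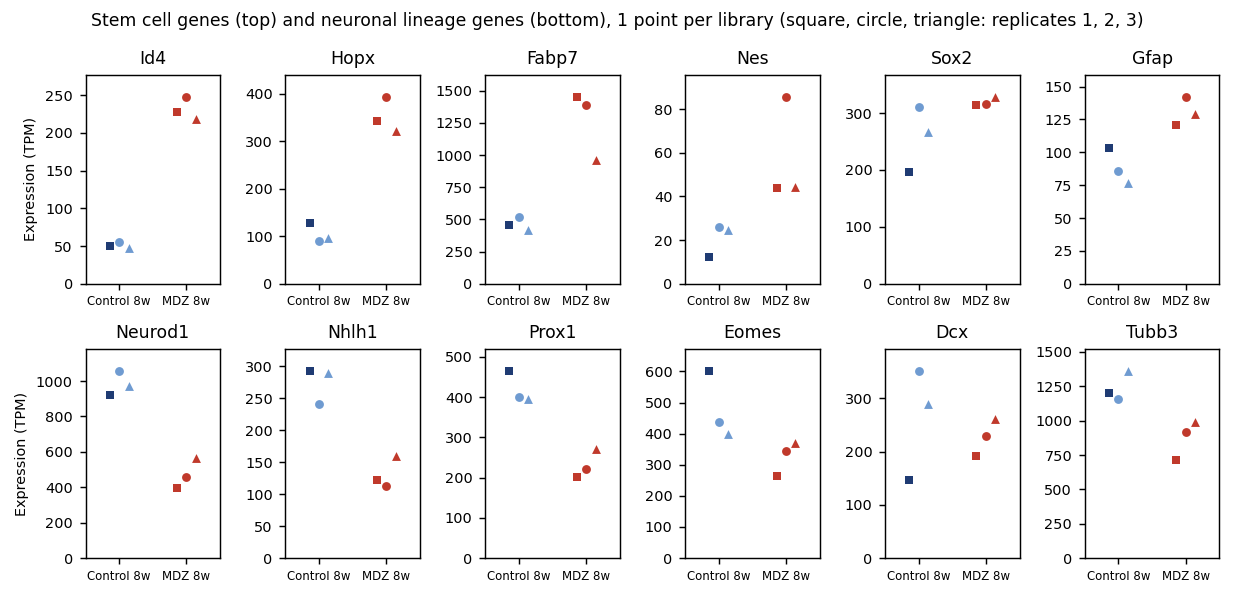
Expression in TPM on a linear axis from 0 of 6 stem cell genes (top) and 6 neuronal lineage genes (bottom), with 1 point per library. MDZ 8w lies above Control 8w in the top row, most widely for Id4 and Hopx and least for Sox2, and below it for the bottom genes except Dcx, where the groups overlap.

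Mature astrocyte genes gave a similar picture with more dependence on the control library. Of 20 tested members of 24, 18 were positive and 1 (Mlc1) rose. The groups were without overlap on the higher side in 9 (45%, against 15.3% of all genes tested) and on the lower side in 1 (5%, against 15.9%). The median log2 change was 0.57, but it was 0.13 against Control 8w replicate 1 and 0.89 against replicates 2 and 3, so that its size rests on which control is used. Gja1, the gap junction protein connexin 43, was at 67.8, 26.8 and 27.5 TPM in Control 8w and at 146, 150 and 160 TPM in MDZ 8w (log2 1.80, adjusted p = 0.102 by limma). Slc7a10, an amino acid transporter of astrocytes, was at 25.5, 6.64 and 16.0 TPM against 83.0, 55.6 and 62.4 TPM (log2 1.89, adjusted p = 0.0976). Exposed libraries exceeded the controls more than 2-fold for both. Atp1b2, a sodium pump subunit, was the member on the lower side, at 1379, 660 and 652 TPM against 622, 548 and 538 TPM. Aqp4, the water channel of astrocyte endfeet, missed the minimum mean at 10.1, 13.3 and 10.5 TPM against 27.8, 25.4 and 24 TPM.

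The genes of the next step, from intermediate progenitor to granule neuron fate, lay on the lower side. Of 22 tested members of a list of 25 lineage factors, 1 was positive, 21 were negative and 0 passed. An unadjusted p below 0.05 was reached by 11 members, all with negative changes. In 13 (59.1%) all exposed libraries were below all control libraries, against 15.9% of all genes tested, and in 0 they were all above. The median log2 change was -0.62, -0.84 against Control 8w replicate 1 and -0.61 against replicates 2 and 3, and it ranged from -0.84 to -0.51 under the alternatives tried. Summed over the list, the level was 8349, 7418 and 7689 TPM in Control 8w and 4446, 5172 and 6367 TPM in MDZ 8w.

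Neurod1, a transcription factor that drives granule neuron differentiation, was at 923, 1055 and 969 TPM in Control 8w and at 397, 458 and 564 TPM in MDZ 8w (log2 -1.05, adjusted p = 0.0732 by limma). Nhlh1, a helix-loop-helix factor of newborn neurons, was at 292, 242 and 290 TPM against 122, 113 and 160 TPM (log2 -1.09, adjusted p = 0.0853). Prox1, which specifies granule neuron fate, was at 465, 401 and 395 TPM against 202, 221 and 271 TPM (log2 -0.90, adjusted p = 0.0990). The groups were separate for these genes, although no member passed after correction. Eomes, the marker of intermediate progenitors also called Tbr2, was at 601, 437 and 400 TPM against 263, 344 and 371 TPM, where the highest exposed library nearly reached the lowest control (log2 -0.64, adjusted p = 0.208). Insm1, Elavl2 and Sox11 were negative in the fit but overlapped between the groups. Btg2, an antiproliferative gene of committed progenitors and an immediate early gene, was the single positive member at 0.06.

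Immature neuron genes of the cytoskeleton and adhesion were lower by less. Of 29 tested members of 29, 4 were positive and 0 passed (median log2 change -0.28). In 12 (41.4%) all exposed libraries were below all controls, against 15.9% of all genes tested. The median was -0.36 against Control 8w replicate 1, with 12 members positive, and -0.39 against replicates 2 and 3, with 4 positive. Map1b, a microtubule-associated protein of growing axons, was at 167, 153 and 151 TPM in Control 8w and at 71.4, 96.3 and 99.7 TPM in MDZ 8w (log2 -0.85, adjusted p = 0.169 by limma). Tubb3, neuronal tubulin, was at 1204, 1155 and 1360 TPM against 711, 915 and 990 TPM (log2 -0.51, adjusted p = 0.248). The groups did not overlap for either. Dcx, the doublecortin gene of neuroblasts, did not follow them. It was at 147, 351 and 290 TPM in Control 8w and at 191, 229 and 262 TPM in MDZ 8w (log2 0.06, adjusted p = 0.946), with Control 8w replicate 1 lowest and replicate 2 highest of the 6. Sox11, Cd24a, Mllt11, Nrep and Sema3c likewise had lower values in Control 8w replicate 1 than in replicates 2 and 3. Synaptic and mature granule neuron genes (16 tested of 24) had 4 positive members and a median of -0.35 (-0.36 and -0.28 against the separate controls). Of them, 7 (43.8%, against 15.9% of all genes tested) lay entirely below controls. Vamp2, a vesicle fusion protein, was at 583, 567 and 592 TPM against 375, 405 and 381 TPM (log2 -0.59, adjusted p = 0.136).

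**Figure D3:**
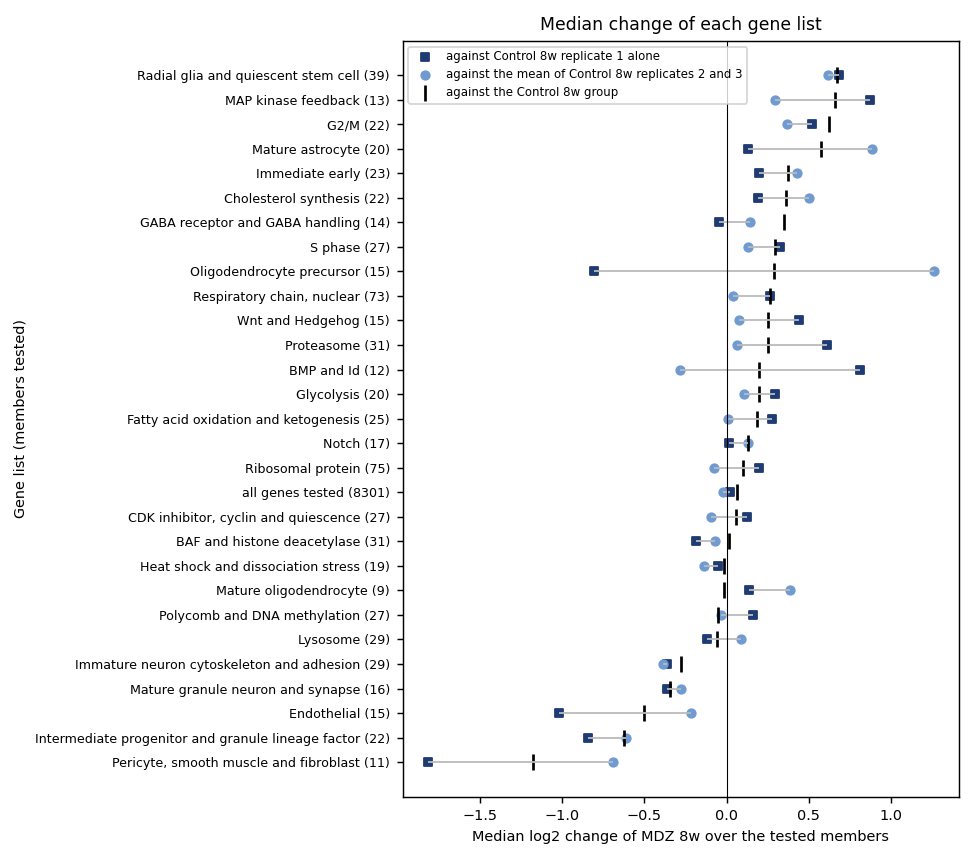
Median log2 change of MDZ 8w over the tested members of each gene list (number of members in brackets), against Control 8w replicate 1 alone (square), the mean of replicates 2 and 3 (circle) and the control group as fitted (bar). Radial glia genes lie between 0.62 and 0.68 and granule lineage factors between -0.84 and -0.61 by all 3 measures, while oligodendrocyte precursor genes move from -0.80 to 1.26.

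Division genes were mixed. Of 27 tested S phase genes of 34, 17 were positive and Slbp, which processes and stabilises histone mRNA, rose, from 8.60, 21.8 and 16.3 TPM to 64.2, 96.6 and 85.9 TPM (log2 2.56 ± 0.40, adjusted p = 0.0470 by limma). Mcm6, a subunit of the replicative helicase, was at 61.6, 84.5 and 76.8 TPM in Control 8w and at 140, 204 and 151 TPM in MDZ 8w (log2 1.19, adjusted p = 0.0952). Pcna, the sliding clamp, overlapped at 417, 395 and 321 TPM against 285, 439 and 336 TPM (log2 -0.15). The list's median was 0.30, and 0.33 and 0.13 against the separate controls. Of 22 tested G2/M genes of 38, 20 were positive and 0 passed, and 5 lay entirely above controls (22.7%, against 15.3% of all genes tested). The median was 0.63, and 0.52 and 0.37 against the separate controls. Part of that median rests on Control 8w replicate 1, where Ube2c and Kif11 were at 0.159 and 0.0306 TPM against 93.4 and 25.7 TPM in replicate 2. Ckap5, a microtubule polymerase of the spindle, was at 55.1, 58.9 and 57.9 TPM against 108, 122 and 109 TPM (log2 0.98, adjusted p = 0.0853). Mki67 was at 43.8, 43.8 and 40.1 TPM against 43.4, 69.9 and 60.8 TPM and Top2a at 71.9, 83.3 and 75.9 TPM against 59.7, 116 and 66.0 TPM, so that these proliferation markers overlapped between the groups (log2 0.40 and 0.03, adjusted p = 0.514 and 0.971).

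Cell cycle regulators and quiescence genes showed no common direction. This list mixes genes that drive the cycle with genes that restrain it, so that its median describes neither kind. Of 27 tested cyclins, inhibitors and quiescence genes, 14 were positive (median 0.06, and 0.12 and -0.09 against the separate controls). Entirely above controls were 5 (18.5%) and entirely below 5 (18.5%), near the 15.3% and 15.9% of all genes tested. Foxo3, a factor of stem cell quiescence, was at 38.8, 14.7 and 18.2 TPM in Control 8w and at 42.8, 71.2 and 56.5 TPM in MDZ 8w (log2 1.10, adjusted p = 0.213 by limma). Rb1, the retinoblastoma gene, was at 13.6, 40.2 and 38.8 TPM against 65.8, 67.2 and 75.0 TPM (log2 1.53, adjusted p = 0.126). Mycn and Mycl, growth-promoting factors, were both below all controls (log2 -0.81 and -0.66, adjusted p = 0.268 and 0.209). The inhibitor genes Cdkn1a, Cdkn1b and Cdkn1c had changes of 0.63, -0.30 and -0.61 and did not pass, nor did Ccnd1 and Ccnd2 at 1.34 and 0.13.

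Signalling genes known in stem cell quiescence differed within each pathway. In the BMP list, where ligands act through receptors and Smad factors on the Id genes, 8 of 12 tested members were positive (median 0.20). Against Control 8w replicate 1 alone, 11 of the 12 were positive (median 0.81), and against replicates 2 and 3 only 4 were (median -0.28), so that the list's direction depends on the control library. Id4 rose, and Id1 and Id3 lay above controls at 28.5, 53.5 and 46.6 against 67.3, 101 and 88.5 TPM and at 64.9, 57.2 and 67.0 against 116, 176 and 114 TPM (log2 1.14 and 1.05, adjusted p = 0.124 and 0.165 by limma). Id2, the most abundant Id gene, did not separate (log2 -0.09), and the receptors and Smad factors overlapped. Among 17 tested Notch genes 11 were positive (median 0.13, and 0.01 and 0.13 against the separate controls), with the target Hes5 at 73.2, 39.2 and 53.9 TPM in Control 8w and 171, 120 and 114 TPM in MDZ 8w (log2 1.17, adjusted p = 0.129). The receptor Notch2 was at 42.3, 43.2 and 43.9 TPM against 67.1, 70.2 and 68.4 TPM (log2 0.66, adjusted p = 0.207), while Notch1 overlapped. Hes1, another Notch target, lay between the control libraries. It was at 0.611, 97.5 and 89.4 TPM in Control 8w and at 52.1, 62.8 and 42.8 TPM in MDZ 8w. In 15 tested Wnt and Hedgehog genes 11 were positive (median 0.26, and 0.44 and 0.07 against the separate controls), and in 13 MAP kinase feedback genes 9 were (median 0.66, and 0.87 and 0.30), with Dusp6, an ERK phosphatase, at 34.5, 42.3 and 34.9 against 99.0, 59.5 and 73.4 TPM.

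GABA genes, the system midazolam acts on, had 9 of 14 tested members positive, and 0 passed. Entirely above controls were 5 (35.7%) and entirely below 3 (21.4%), against 15.3% and 15.9% of all genes tested. The median was 0.35 as fitted, -0.04 against Control 8w replicate 1 and 0.14 against replicates 2 and 3, with 7 of 14 positive against either, so that the list had no common direction. Slc6a11, a transporter that takes up GABA into glia, was at 50.3, 52.3 and 53.6 TPM in Control 8w and at 108, 115 and 94.6 TPM in MDZ 8w (log2 1.02, adjusted p = 0.117 by limma), without overlap. Dbi, which encodes an endogenous ligand of the benzodiazepine site and is rich in stem cells, was at 345, 802 and 798 TPM against 1378, 1145 and 968 TPM (log2 1.13, adjusted p = 0.159). The receptor subunit gene Gabra2 had a change of 0.44 (adjusted p = 0.515). Gabra5, another subunit gene, was listed at 0 in all control libraries and was at 0 to 2.24 TPM in MDZ 8w. The chloride importer gene Slc12a2 overlapped (log2 -0.19), and the exporter gene Slc12a5 was below the minimum in all libraries.

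Immediate early genes had 19 of 23 tested members positive, and 0 passed (median 0.37, and 0.20 and 0.43 against the separate controls). Entirely above controls were 8 (34.8%) and entirely below 2 (8.70%), against 15.3% and 15.9% of all genes tested. Maff, a small Maf factor, was at 5, 1.03 and 0.168 TPM in Control 8w and at 47.8, 76.6 and 65.8 TPM in MDZ 8w (log2 4.35, adjusted p = 0.0513 by limma). Fosb and Jun, subunits of AP-1, were at 235, 89.4 and 98.0 against 453, 349 and 509 TPM and at 752, 696 and 739 against 1313, 1066 and 1552 TPM (log2 1.53 and 0.82, adjusted p = 0.102 and 0.0989). These genes were separate between the groups. Egr1, the zinc finger factor that the series also studied in culture, was not: it was at 2706, 2231 and 2394 TPM in Control 8w and at 2049, 1881 and 2692 TPM in MDZ 8w (log2 -0.20, adjusted p = 0.593). Nab2, an Egr1 target and co-repressor, had a change of 1.40 (adjusted p = 0.246). Such genes also answer to tissue dissociation and sorting. The heat shock and dissociation stress list had a median of -0.01, with the chaperone gene Hspb1 at 223, 118 and 148 TPM against 47.1, 60.4 and 47.1 TPM and Hspe1 at 50.4, 187 and 159 against 223, 263 and 222 TPM.

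Of the mitochondrial and metabolic lists, the respiratory chain held 2 genes that rose among 73 tested (51 positive, median 0.27). Entirely above controls were 19 (26.0%) and entirely below 6 (8.22%), against 15.3% and 15.9% of all genes tested. The median was 0.27 against Control 8w replicate 1, with 49 positive, and 0.04 against replicates 2 and 3, with 37 of 73 positive, so that the list's shift is not seen against the latter. Atp5g3, a proton channel subunit of ATP synthase, was at 340, 197 and 177 TPM in Control 8w and at 810, 977 and 800 TPM in MDZ 8w (log2 1.76 ± 0.25, adjusted p = 0.0410 by limma). Uqcr10, a small subunit of complex III, was at 128, 101 and 97.4 TPM against 370, 450 and 364 TPM (log2 1.79 ± 0.27, adjusted p = 0.0410). Other subunits went the other way, such as Ndufa13 of complex I at 252, 252 and 243 TPM against 157, 141 and 163 TPM. The ribosomal protein list had a median of 0.10 as fitted, 0.20 against Control 8w replicate 1 and -0.07 against replicates 2 and 3. The proteasome list had 0.25, 0.61 and 0.07.

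Cholesterol genes had 15 of 22 tested members positive (median 0.36, and 0.19 and 0.50 against the separate controls). Entirely above controls were 8 (36.4%) and entirely below 0, against 15.3% and 15.9% of all genes tested. Insig1, a sterol sensor, was at 18.7, 69.1 and 63.5 TPM in Control 8w and at 150, 224 and 156 TPM in MDZ 8w (log2 2.26, adjusted p = 0.0974 by limma). The exposed libraries were more than 2-fold above the controls. Fatty acid oxidation and ketogenesis genes had 17 of 25 tested members positive and a median of 0.18 (0.28 and 0.01 against the separate controls). By the same measure, 6 (24%) lay entirely above and 4 (16%) entirely below controls.

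Chromatin regulators had medians near 0 (-0.05 for Polycomb and DNA methylation, 0.01 for BAF complexes and histone deacetylases), and 0 of 27 and 0 of 31 tested genes passed. Ezh2, the Polycomb methyltransferase gene, was at 110, 91.5 and 102 TPM in Control 8w and at 140, 171 and 170 TPM in MDZ 8w (log2 0.63, adjusted p = 0.233 by limma). Hdac7, a class IIa deacetylase, was at 13.6, 14.9 and 15.8 TPM against 42.1, 37.4 and 49.1 TPM (log2 1.5, adjusted p = 0.0695). Neither overlapped, and Hdac7 was more than 2-fold apart. Cbx8, a reader subunit of Polycomb complexes, was at 74.7, 123 and 109 TPM against 33.3, 39.5 and 46.5 TPM (log2 -1.22, adjusted p = 0.128). Dnmt1, Dnmt3a and Tet3 had changes of -0.15, -0.14 and -0.56, and Hdac1 and Hdac2 of -0.42 and -0.27.

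Markers of other cell types differed among the libraries. Of the genes of pericytes, smooth muscle and fibroblasts, 2 of 11 tested members were positive. Entirely below controls were 4 (36.4%), against 15.9% of all genes tested. The list's median was -1.18, and it was -1.82 against Control 8w replicate 1 and -0.69 against replicates 2 and 3. Summed over that list of 20, the level was 4610, 2683 and 2964 TPM in Control 8w, 998, 1374 and 1711 TPM in MDZ 8w and 2980, 2781 and 3908 TPM in RUN MDZ 8w. Vtn, a matrix protein of pericytes, was at 2480, 1939 and 2152 TPM against 398, 820 and 823 TPM in MDZ 8w (log2 -1.80, adjusted p = 0.0530 by limma). Endothelial genes had 3 of 15 positive (median -0.50, and -1.02 and -0.22 against the separate controls). Their summed level was 2724, 2198 and 2219 TPM in Control 8w, 1892, 2182 and 1669 TPM in MDZ 8w and 3650, 4793 and 4441 TPM in RUN MDZ 8w. Cdh5, the endothelial cadherin gene, was at 37.8, 38.3 and 32.8 TPM against 10.8, 11.4 and 8.41 TPM (log2 -1.76, adjusted p = 0.0530), while Cldn5, a tight junction gene, overlapped at 194, 145 and 185 against 145, 159 and 147 TPM. Egfl7, a secreted factor of endothelial cells, lay above controls at 8.90, 21.6 and 18.2 against 30.9, 39.8 and 42.4 TPM (log2 1.41, adjusted p = 0.182). Vascular genes thus included members below all controls, members that overlapped and 1 above.

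Oligodendrocyte precursor genes followed single libraries. Their summed level was 5818, 1408 and 1525 TPM in Control 8w, 7732, 1966 and 2843 TPM in MDZ 8w and 10513, 3733 and 6681 TPM in RUN MDZ 8w, highest in replicate 1 of each group. Olig1, a factor of that lineage, was at 1747, 384 and 383 TPM against 2034, 672 and 732 TPM, and the list's median was -0.80 against Control 8w replicate 1 and 1.26 against replicates 2 and 3. Ependymal and choroid plexus genes were high in other libraries. Their summed level was 86.7, 4683 and 4958 TPM in Control 8w, 313, 243 and 181 TPM in MDZ 8w and 550, 4920 and 1013 TPM in RUN MDZ 8w. Only 2 of those 20 genes met the gene rule, Ttr, the transthyretin gene, and 1500015O10Rik. They made up most of the sum in Control 8w replicates 2 and 3 and in RUN MDZ 8w replicate 2. In MDZ 8w and in RUN MDZ 8w replicates 1 and 3 the other members did. Tmem212, 1 of those, was at 0 in all Control 8w libraries. It was at 16.9, 15.1 and 11.1 TPM in MDZ 8w and at 74.4, 139 and 176 TPM in RUN MDZ 8w. Xist, the RNA of the inactive X chromosome, was at 95.6, 527 and 449 TPM in Control 8w and at 24.5, 107 and 271 TPM in MDZ 8w. Ddx3y, a Y-linked gene, was at 49.96, 58.2 and 48.6 against 72.3, 58.1 and 51.3 TPM, so that each of these 6 libraries held RNA of both sexes. RUN MDZ 8w differed, with Xist at 663, 280 and 620 TPM and Ddx3y at 0, 29.1 and 0 TPM. Its replicates 1 and 3 thus held no Ddx3y RNA. Microglial genes were low in all 6 libraries (221 to 515 TPM summed over 20 genes). The part of these cell types, of choroid RNA and of sex in the changes of stem cell and lineage genes was not tested.

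**Figure D4:**
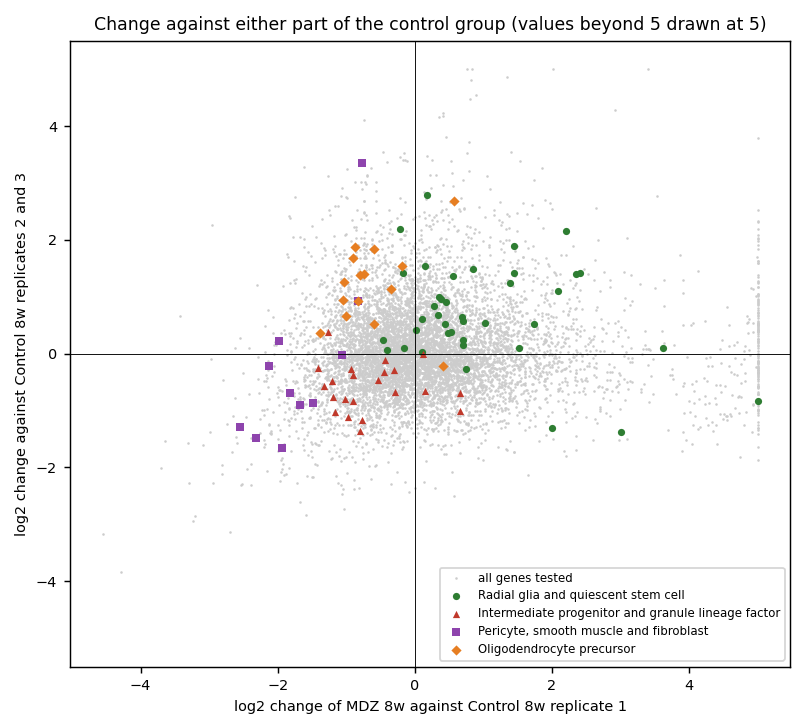
Log2 change of MDZ 8w against Control 8w replicate 1 (horizontal) and against the mean of replicates 2 and 3 (vertical), 1 point per gene, values beyond 5 drawn at 5. Radial glia genes (green) lie mostly in the upper right, granule lineage factors (red) mostly below the horizontal line, and oligodendrocyte precursor genes (orange) mostly in the upper left, where the sign depends on the control library.

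The last question was whether the changes at 8 weeks differed from those 1 day after the last dose. The 8-week change was set against the P10 change in a test of their difference, for 7731 genes that also averaged at least 20 at P10. Values are in TPM at 8 weeks and in FPKM scaled to the same total at P10, and the tables were normalized separately. The difference passed an adjusted p of 0.05 for 57 genes (0.737%), 47 higher (0.608%) and 10 lower (0.129%) at 8 weeks. All 25 genes that rose at 8 weeks and 6 of the 7 that fell were among them, the exception being Bgn (adjusted p = 0.0511). Since the difference contains the 8-week change by which those genes were chosen, this count is no independent evidence. At P10 none of the 32 changed by more than 0.27 in size on the log2 scale, and none passed there. Id4 had a change of 0.18 at P10 and 2.17 at 8 weeks (difference 1.99 ± 0.26, adjusted p = 0.0178). Mlc1 had -0.02 and 1.63 (difference 1.65 ± 0.21, adjusted p = 0.0126), and Hist3h2a 0.22 and -1.35 (difference -1.57 ± 0.18, adjusted p = 0.00787).

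Fabp7 differed between the ages with opposite signs. At P10 its change was -0.43 and at 8 weeks 1.43 (difference 1.85 ± 0.25, adjusted p = 0.0178 by limma). Fgfr3 had 0.00 at P10 and 1.88 at 8 weeks (adjusted p = 0.0416 for the difference). Among genes outside the lists, Tlcd1, Pglyrp1 and Psenen, a subunit of the gamma-secretase that cleaves Notch, had differences of 2.69, -2.08 and -1.68. Egr1 had a change of 0.59 at P10 and -0.20 at 8 weeks and Ier2, another immediate early gene, 0.63 and -0.37. These differences did not pass (adjusted p = 0.0985 and 0.0981). By lists, radial glia genes had a median of 0.05 at P10 with 28 of 39 positive, granule lineage factors -0.15 with 4 of 19 positive, and immediate early genes 0.31 with 17 of 19 positive.

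The level in P10 controls was set beside both 8-week groups, with the limit that the tables were scaled separately. Id4 was at 327, 265 and 320 in Control P10, Gas1 at 125, 94.3 and 130, Ptpmt1 at 90.0, 92.7 and 85.2, and Plxna2 at 73.2, 57.8 and 63.4. For these genes the P10 control level was closer to MDZ 8w than to Control 8w. The same held for all 25 genes that rose and for 6 of the 7 that fell, and for 69.5% of all genes compared. The median distance of the P10 control level was 0.38 from MDZ 8w and 1.98 from Control 8w on the log2 scale for the genes that rose, and 0.32 and 0.54 for all genes compared. The genes that rose were chosen for a wide gap between the 8-week groups. Their P10 level thus had to lie far from at least 1 group, and these distances are no independent result. How far age, and how far the deposited control values at 8 weeks, enter the levels was not tested.

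**Figure D5:**
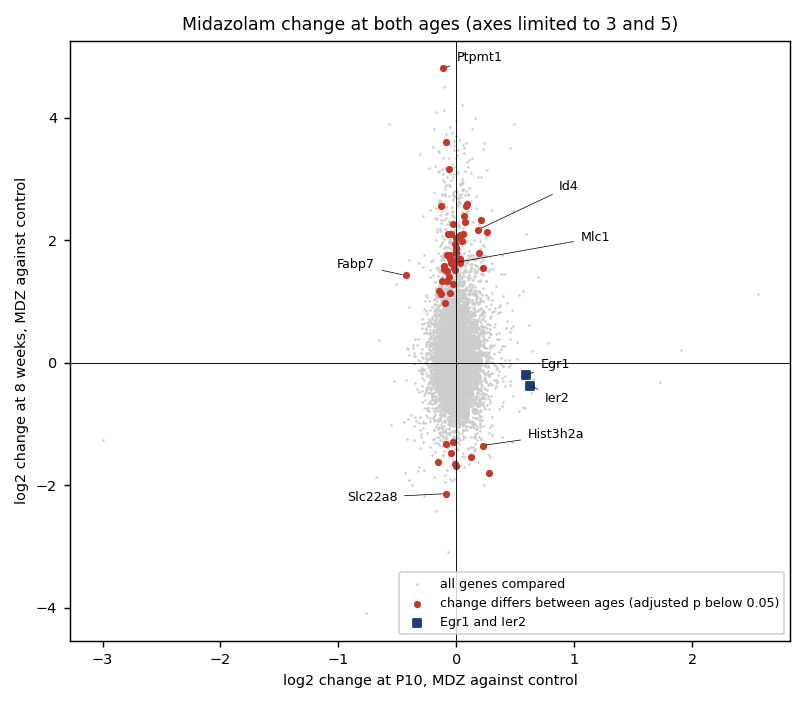
Log2 change of MDZ against control at P10 (horizontal) and at 8 weeks (vertical), 1 point per gene. Genes whose change differed between the ages (red) lie along the vertical axis, with 8-week changes such as 4.81 for Ptpmt1 and P10 changes near 0, while Egr1 and Ier2 (blue) lie to the right, near 0.6 at P10.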

How the data were processed

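The deposited 8-week tables give 1 value per gene and library that sums to 1000000, read here as TPM, and the deposited P10 tables, with lower totals, were read as FPKM. Neither unit is named in the labels. The submitters' processing notes name mm10, TopHat, Bowtie2 and DESeq2, with no version and no stated role. Counter, annotation and strand setting: not given in the sources used here, so overlapping, antisense and closely related genes are uncertain. Libraries were made with a directional kit, per the labels.

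Genes above 0 in all 6 libraries with a mean of at least 20 TPM were tested with limma-trend (limma 3.58.1, robust empirical Bayes, R 4.3.3, package data.table in version 1.17.8) on log2(TPM + 1), a scale that understates changes of low genes. Control 8w (after averaging replicates 2 and 3), MDZ 8w and RUN MDZ 8w shared 1 spread, and p-values were adjusted by Benjamini-Hochberg over 8301 genes. The P10 change came from its own limma fit, with each library scaled to a total of 1000000, and the difference between ages used both standard errors, with degrees of freedom combined from both fits. P-values measure the spread between these pooled libraries. Genes named in the text are up to 12 called genes in each direction by size, up to 4 called and the 3 most abundant other members of each list, a fixed set of lineage, cycle, GABA and chromatin genes, up to 6 genes in each direction for the ages, and list members at an unadjusted p below 0.05 or otherwise singled out, which were chosen after their values were seen. Members, lists and tests were chosen with earlier results of these data known. Symbols were matched to RefSeq for position. The procedure was tested on simulated data. These had 1 spread per gene for all groups, so that the wider spread of the 8-week controls was not covered. ATAC, ChIP and culture samples were not analysed here. Some genes covered by the naming rule are not reported here.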

Additional observations from a re-analysis of the deposited data

Results flagged for a closer look

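These genes are listed because their midazolam change at 8 weeks differed from that at P10 in a test of the difference itself (8-week minus P10 log2 change, adjusted p below 0.05 over 7731 genes, limma fits). The FPKM of P10 and the TPM of 8 weeks were normalized separately. Most of the genes listed here were also called at 8 weeks, so for them the difference repeats that result.

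Genes of stem cells and astroglia with a positive difference were Id4 (1.99), Fabp7 (1.85), Fgfr3 (1.88), Mlc1 (1.65) and Gas1 (1.60). Fabp7 had a change of -0.43 at P10 and 1.43 at 8 weeks, and for the others the P10 change lay between -0.02 and 0.19.

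Genes of mitochondria were Ptpmt1 at 4.93, Glrx5, an iron-sulfur cluster protein, at 2.30, Atp5g3 at 1.82, Uqcr10 at 1.80 and the carrier gene Slc25a44 at 1.67. Genes of transcription and RNA handling were Gtf2a2 at 3.69, Lyar at 3.22, Slbp at 2.48, the RNA helicase gene Ddx27 at 2.23, Ssbp4 at 2.12, Fubp3 at 2.05, Neat1 at 1.88, Nol7 at 1.69, the splicing factor gene Snrnp27 at 1.60 and Nelfb at 1.46. The deacetylase gene Hdac7 was at 1.57 and the spindle gene Ckap5 at 1.07.

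Further positive differences were those of Tlcd1 (2.69), Cmtm6 (2.51), Gm15421 (2.14), Mfsd11 (2.06), Wdr11 (1.83), Pcmtd2 (1.82), 2700089E24Rik (1.52) and Phpt1 (1.33). Some of the 47 positive differences are not listed here. Gm15421 is a predicted gene model, and its level may include reads of related sequences.

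Negative differences were found for Pglyrp1, a peptidoglycan recognition protein (-2.08), Slc22a8 (-2.05), Psenen (-1.68), Mast1 (-1.66), Dpp7 (-1.64), Hist3h2a (-1.57), Crip1 (-1.47) and Plxna2 (-1.25). At P10 these genes had changes of at most 0.28 in size. The control libraries at 8 weeks enter every one of these values.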

How the results depend on the processing

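The count of genes called at 8 weeks (32) was 64 with a pseudocount of 5, 802 of 15264 genes with a mean of at least 1 and no rule on zeros, 56 after quantile normalization (26 of them among the 32), 295 with Control 8w replicates 2 and 3 kept apart, and 2559 without those replicates. It was 0 with the Control 8w and MDZ 8w libraries alone and 0 with library quality weights (446 genes at an unadjusted p below 0.05), and 0 to 1036 with 1 library left out. The count for the ages (57) was 34 with a mean of at least 50, 272 with replicates 2 and 3 kept apart, 2418 without them, 0 with only the compared libraries, and 0 to 938 with 1 library left out, the highest without Control 8w replicate 1. Other settings gave 26 to 35 and 56 to 62. Where a control group is left with 1 sample, that sample is assumed to vary like the other groups. The settings without robust empirical Bayes and without Control 8w replicates 2 and 3 were chosen after the data were seen. No named gene changed direction past the threshold under any setting. No read depth stands behind TPM, so counting error could not be given.

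With the replicate number as a replicate block and replicates 2 and 3 kept apart, 102 genes were called (68 higher, 34 lower), all 32 among them, against 295 without the block. The labels do not say that a number marks a shared batch. Same-numbered libraries had correlations of 0.10, 0.11 and 0.01, which do not all exceed 0.1, and the reported values therefore use no block. Oligodendrocyte precursor genes were highest in replicate 1 of all 3 groups.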
